A study of Mus musculus with 2 samples.

Results

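The transcription factor genes followed here act in the heart and in the second heart field: Nkx2-5, Isl1, Tbx1, Tbx5, Tbx20, Gata4, Gata6, Hand1, Mef2c and Tcf21. They were taken by name, as 10 of the 18131 genes measured, and all 10 had a column in both libraries. The cells came from the cardiac neural crest region of C57BL/6 mouse embryos at E9.5, a stretch that ran from mid otic placode level back to the rear edge of somite 4, and were not sorted. They were dissociated for droplet single-cell RNA sequencing from the 3′ end of transcripts. WT embryos were Prdm6+/+; Wnt1-Cre2; ZsGreen1 and KO embryos were Prdm6f/f; Wnt1-Cre2; ZsGreen1, so that both genotypes carried the Cre transgene and the green reporter. Wnt1-Cre2 is active in the Wnt1 lineage, which includes the neural crest, and the mesoderm that forms heart muscle lies outside that lineage. The authors also reported reporter-positive cells of that lineage in the myocardium, fewer of them in KO. They further reported less Prdm6 in a cardiac muscle cluster of KO. Each genotype gave 1 library of pooled embryos and cells were not assigned to embryos here, so differences between genotypes have no replicate check.

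The heart tube first forms from the first heart field and then grows at both ends by adding cells of the second heart field, a mesodermal population of the pharynx and the splanchnic wall. Nkx2-5, the GATA factors Gata4 and Gata6, the T-box factors Tbx5 and Tbx20, the basic helix-loop-helix factor Hand1 and the MADS-box factor Mef2c switch on contractile genes and pattern the chambers. Isl1 and Tbx1 keep second heart field cells proliferating before they enter the tube, and Tcf21 marks epicardial and pharyngeal muscle progenitors.

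The WT library held 11958 cells and 20781384 UMIs (unique molecular identifiers, which count captured transcripts), with a median of 1597 UMIs per cell. The KO library held 9765 cells and 18936857 UMIs, with a median of 1703. The 2 libraries shared 26 cell barcodes. Levels are given as CPM, the UMIs of a gene per 1000000 UMIs of the cells named, and the KO over WT comparison is a log2 ratio of CPM. Values in brackets are exact 95% intervals that cover counting error only. The targeted gene had 104 UMIs in WT and 59 in KO, a log2 ratio of −0.68 (−1.17 to −0.21), over all cells, whether or not of the deleted lineage.

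Cells were sorted into classes by marker genes that exclude the 10 regulators, and each class is named as resembling a cell type (cardiac muscle-like, endothelial-like and so on), with the suffix left out from here on. Cells in which at least 2% of the UMIs came from 11 cardiac muscle markers formed the cardiac muscle class. These were Myl7, Myl4, Tnnt2, Tnni1, Tnnc1, Actc1, Myh6, Myh7, Ttn, Nppa and Smpx. Other classes needed at least 2 distinct markers in a cell. The cut at 2% lay within a continuous range. Of the cardiac muscle cells, 162 of 576 in WT and 106 of 302 in KO had a share between 2% and 3%, and 59 WT and 42 KO cells lay just below the cut, between 1.5% and 2%. Cells with a share of 1% to 2% (131 in WT, 89 in KO) were kept apart as an intermediate range. Each remaining cell took the class of which it had most distinct markers. The 6313 WT and 5536 KO cells of no class had under 2 markers of every class or had classes tied for the most. Cardiac muscle made up 576 WT cells (4.82% of the library, 4.44% to 5.22%) and 302 KO cells (3.09%, 2.76% to 3.46%). Proepicardium (108 WT and 35 KO cells), splanchnic mesoderm (182 and 95) and erythroid cells (573 and 213) also had smaller shares in KO, while the share of pharyngeal mesoderm was 0.619% in WT and 0.645% in KO. Whether this reflects genotype, embryo or dissection cannot be told apart with 1 library per genotype. Median depth was 2358 UMIs in WT and 3182.5 in KO cardiac muscle and 1993.5 and 2414 in endothelial cells. It was 2269 and 2287 in proepicardium and 1958 and 1831 in somite and sclerotome. The part of depth in the class shares was not tested.

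Free cardiac RNA was spread over both libraries: cardiac markers made up a median of 0.0986% of the UMIs of WT erythroid cells and 0.0906% in KO, cells that should not make them. Erythroid cells therefore served as the background for each regulator. Other classes lay on both sides of this share. Neural tube had medians of 0.136% in WT and 0.126% in KO, proepicardium 0.212% and 0.208%, and migrating neural crest 0.0857% and 0.0781%. The erythroid level may thus lie below or above the background of a class set beside it. Nkx2-5 stood at 2.53 CPM in WT and 5.61 in KO erythroid cells, Tbx5 at 4.22 and 5.61, Hand1 at 1.69 and 1.87, and Isl1 at 8.44 and 9.34. The erythroid level was higher for Mef2c (32.9 and 33.6 CPM), Gata6 (30.4 and 16.8), Tbx20 (17.7 and 14.9), Tbx1 (13.5 and 9.34) and Gata4 (13.5 and 1.87). Tcf21 had 9 UMIs (7.59 CPM) in WT erythroid cells and 0 in KO, which allows up to 3 UMIs.

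The regulators did not share a single site of highest level. Among the 14 classes described, Nkx2-5, Tbx5, Tbx20 and Mef2c had their highest mean level over both libraries in cardiac muscle, Gata4 and Gata6 in proepicardium, Isl1 in neurons and Tbx1 in mesenchyme gated by Foxd1, Stra6, Prrx1 and Prrx2. This order was taken among those with at least 50 UMIs of the gene, which left out Tcf21 and left cardiac muscle as the only class for Hand1, so the place of Hand1 in this order was fixed by the minimum. Gates of otic, myogenic, and macrophage and megakaryocyte markers, which raised too few of their own markers to be named, were left out as well.

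**Figure D1:**
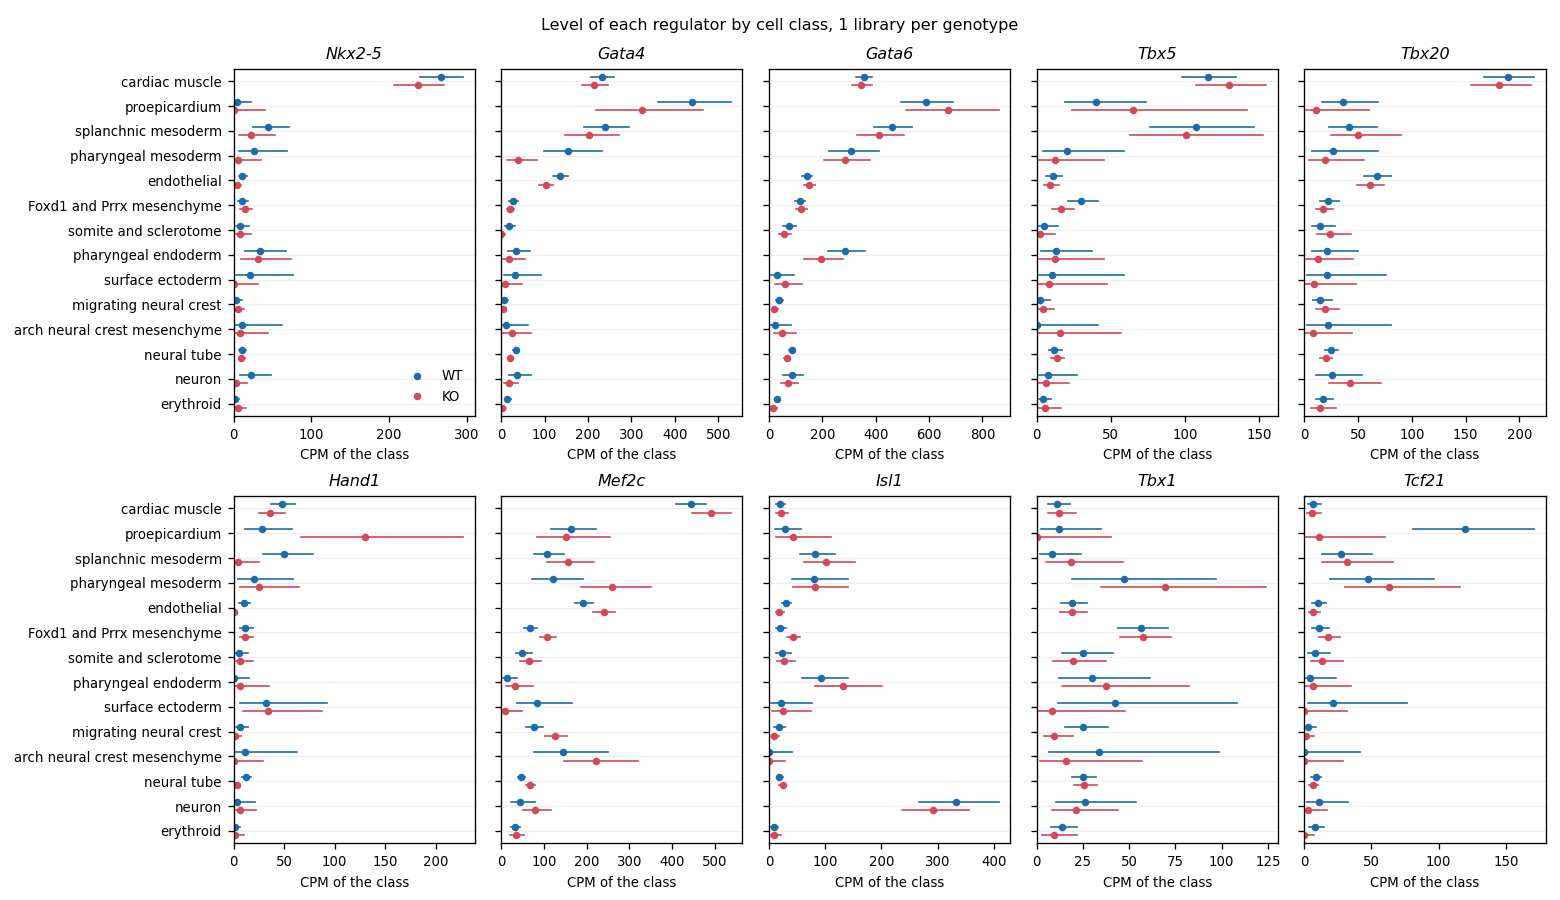
Level of each regulator (x axis, CPM of the class, a separate scale per gene) in 14 marker-gated classes (y axis) in WT (blue) and KO (red); points are the pooled level of 1 library and lines the exact 95% Poisson interval. Nkx2-5 stands highest in cardiac muscle, Gata4 and Gata6 in proepicardium and Isl1 in neurons, in both libraries.

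Nkx2-5 (chromosome 17, 26838664 to 26845009, minus strand, GRCm38), the homeobox factor that marks committed heart cells, was, of the 10, the one with the largest share of its UMIs in cardiac muscle. That class held 370 of its 675 UMIs in WT (54.8%) and 218 of 419 in KO (52.0%), at 267 CPM (240.1 to 295) and 237 CPM (207 to 271). The next named classes were far lower in WT, at 44.0 CPM in splanchnic mesoderm (16 UMIs) and 33.9 CPM in pharyngeal endoderm (8 UMIs), and their intervals did not reach that of cardiac muscle. A single source of free RNA would hold Nkx2-5 and the cardiac markers in the ratio found in cardiac muscle. At that ratio neural tube cells would hold 26.9 Nkx2-5 UMIs in WT and 25.1 in KO, and they held 28 and 27. Other classes lay further from it, such as erythroid cells of WT (3 UMIs against 8.80) and the Foxd1 and Prrx mesenchyme of KO (18 against 10.4). Splanchnic mesoderm was above it in WT, with 16 UMIs where the ratio gives 3.88. In KO its 5 UMIs did not differ beyond counting error from the 2.22 that the ratio gives. Pharyngeal endoderm was above the ratio in both libraries, with 8 UMIs against 1.83 in WT and 5 against 1.12 in KO. The intermediate range held 39 against 27.1 in WT and 17 against 19.9 in KO. Cells of no class held 157 UMIs in WT and 108 in KO, against 118 and 103 at that ratio.

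Tbx5 (chromosome 5, 119832668 to 119885219, plus strand), which marks the first heart field and the inflow end, had nearly the same level in splanchnic mesoderm as in cardiac muscle. WT levels were 115 CPM (98.1 to 135) in cardiac muscle and 107 CPM (76.3 to 147) in splanchnic mesoderm, and KO levels were 129 and 101 CPM. These neighbours did not differ beyond their intervals in either library. Among the described classes, proepicardium came next at 39.9 CPM in WT and 65.0 CPM in KO, on 10 and 6 UMIs.

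Tbx20 (chromosome 9, 24718138 to 24774303, minus strand), needed for chamber growth and for the endocardial cushions, had a second site in endothelial cells. Cardiac muscle stood at 189 CPM (167 to 214) in WT and 182 CPM (155 to 211) in KO. Endothelial cells stood at 67.4 CPM (55.6 to 81.1) on 113 UMIs and 60.7 CPM (49.0 to 74.4) on 93, with intervals above those of erythroid cells, which were 17.7 CPM (upper limit 27.1) and 14.9 CPM (upper limit 29.5). Within endothelial cells, 48.8% of the 84 WT cells with a Tbx20 UMI also had a Gata4 UMI (37.7% to 60.0%), against 12.7% of the others, at median depths of 2198 and 1976 UMIs per cell. In KO the shares were 48.5% of 68 cells (36.2% to 61.0%) and 10.6%, at depths of 2646 and 2389. With each cell thinned to 1000 UMIs the shares were 29.5% (16.8% to 45.2%) against 9.08% in WT and 27.6% (12.7% to 47.2%) against 4.86% in KO, so the pairing held at equal depth. For comparison, 2.27% of WT and 0.469% of KO erythroid cells had a Gata4 UMI, at median depths of 1968 and 2450.

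Gata4 (chromosome 14, 63198922 to 63271692, minus strand) and Gata6 (chromosome 18, 11052064 to 11085635, plus strand), zinc finger partners of Nkx2-5 and Tbx5, had the same 3 classes at the top. Gata4 stood at 439 CPM (361 to 530) in WT and 325 CPM (219 to 464) in KO proepicardium, then at 239 and 202 CPM in splanchnic mesoderm, and 233 and 214 CPM in cardiac muscle. Pharyngeal mesoderm (155 and 37.8 CPM) and endothelial cells (135 and 103 CPM) came next, in an order that differed between the libraries. Splanchnic mesoderm and cardiac muscle did not differ beyond their intervals. Gata6 stood at 587 CPM (496 to 690.1) in WT and 672 CPM (515 to 861) in KO proepicardium, 462 and 412 CPM in splanchnic mesoderm, 355 and 347 CPM in cardiac muscle and 309 and 284 CPM in pharyngeal mesoderm. The 2 genes parted in pharyngeal mesoderm of KO and in pharyngeal endoderm, where Gata6 had 284 CPM in WT and 195 CPM in KO, and Gata4 had 33.9 and 18.9 CPM on 8 and 3 UMIs. An RNA gene on the other strand overlaps Gata6, and the strand setting of the counting was not given in the sources used here.

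Hand1 (chromosome 11, 57828705 to 57832818, minus strand), a factor of the left ventricle and of ventral mesoderm, had 395 UMIs in WT and 190 in KO. Cardiac muscle held 66 of these in WT (47.5 CPM, 36.8 to 60.5) and 33 in KO (35.9 CPM, 24.7 to 50.4). The cells of no class held more, 211 in WT and 92 in KO.

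Mef2c (chromosome 13, 83504034 to 83667080, plus strand), a muscle and vascular activator that lies downstream of Isl1 and GATA factors, stood highest, among the 14 classes, in cardiac muscle. It had 443 CPM (409 to 479) in WT and 490.3 CPM (446 to 538) in KO there, and endothelial cells had 192 and 239.7 CPM. Pharyngeal mesoderm had 121 CPM in WT and 259 CPM in KO, so its place against endothelial cells differed between the libraries. The unnamed gate of myogenic markers (34 WT and 18 KO cells) stood above cardiac muscle, at 695 CPM on 51 UMIs and 1610 CPM on 66 UMIs, 34 of the latter in a single cell. The intermediate range, whose leading genes include Myh3, Mylpf, Rbm24, Myocd and Mef2c itself, stood above cardiac muscle at 714 and 943 CPM.

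Isl1 (chromosome 13, 116298281 to 116309689, minus strand), the LIM homeobox factor used as a second heart field marker and also active in motor and sensory neurons, was highest outside the heart. Neurons stood at 332 CPM (267 to 409) on 89 UMIs in WT and 291 CPM (236 to 356) on 96 UMIs in KO. Pharyngeal endoderm (93.3 and 132 CPM), splanchnic mesoderm (82.6 and 101 CPM) and pharyngeal mesoderm (80.6 and 82.0 CPM) came next and did not differ from each other beyond their intervals. Cardiac muscle as a whole was low, at 20.2 and 21.7 CPM on 28 and 20 UMIs.

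Tbx1 (chromosome 16, 18580979 to 18590671, minus strand), a pharyngeal regulator of the second heart field, lay close to its background in many classes. The Foxd1 and Prrx mesenchyme had 56.2 CPM (43.8 to 71.2) in WT and 57.5 CPM (44.9 to 72.7) in KO. Pharyngeal mesoderm had 47.0 and 69.4 CPM on 7 and 11 UMIs, and its intervals hold the levels of that mesenchyme. Cardiac muscle had 10.8 and 12.0 CPM, and these intervals overlap those of erythroid cells.

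Tcf21 (chromosome 10, 22817281 to 22820174, minus strand), a helix-loop-helix factor of the epicardium, had 280 UMIs in WT and 213 in KO. WT proepicardium had 119.8 CPM (80.8 to 171) on 30 UMIs in 108 cells. Pharyngeal mesoderm had 47.0 and 63.1 CPM, on 7 and 10 UMIs. An antisense gene overlaps Tcf21.

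The regulators include factors that bind GATA, T-box and NKX motifs, so their own promoters were searched for these. Promoters from RefSeq (GRCm38.p6, 250 bases before to 50 after a start) were matched for 6 of the 10 genes. The motif, spelled AGATAA or TGATAA on either strand, was in 18.6% of 32851 promoters of that length and in 2 of the 9 promoters of these 6 genes, those of Isl1 and Tcf21. A stretch of 125 bases, from 150 bases before the RefSeq start onward, is shown for these 2, 5′ to 3′ on the gene's strand, with the motif in capitals.
Isl1, chr13:116309714-116309838, minus strand: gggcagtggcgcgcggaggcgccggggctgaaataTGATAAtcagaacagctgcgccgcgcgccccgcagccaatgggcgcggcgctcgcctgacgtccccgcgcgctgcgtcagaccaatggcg
Tcf21, chr10:22820169-22820293, minus strand: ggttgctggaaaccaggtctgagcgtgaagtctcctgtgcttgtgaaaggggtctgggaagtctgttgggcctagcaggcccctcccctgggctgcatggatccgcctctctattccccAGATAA
The motif begins at position −115 in Isl1, with another match at position 11 after the start that is not shown, and at −31 in Tcf21. In the same promoters the T-box motif AGGTGT was found in Mef2c (1 of 3 listed starts) and Tbx1 (1 of 2), and in 13.7% of all promoters, and the NKX motif AAGTGG in none of the 6 genes and in 16.9% of all promoters. These are matches of letters and not binding sites.

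Cardiac muscle cells were then divided by chamber genes that are not among the 10. Ventricular cells (Myl2, Myl3, Irx4, Hey2, Pln) numbered 283 in WT and 150 in KO, atrial and sinus cells (Nr2f1, Nr2f2, Sln, Shox2, Vsnl1) 145 and 75, and outflow cells (Rspo3, Sema3c, Tdgf1, Wnt11) 22 and 14, with 126 and 63 undivided. Each of the 10 genes was compared between these 3 divisions in each library. Hand1, Tbx5, Gata6, Isl1 and Mef2c were uneven along the tube beyond counting error, in the same direction in both libraries. The share of all genes uneven by this rule was not computed, so the number of regulators has no background beside it.

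Hand1 lay on the ventricular side. It had 47 UMIs (64.5 CPM) in WT and 21 UMIs (45.5 CPM) in KO ventricular cells, and 3 and 1 UMIs in atrial and sinus cells, a log2 ratio of atrial over ventricular of −2.85 (−5.17 to −1.21) in WT and −3.39 (−8.76 to −0.75) in KO. Tbx5 lay on the atrial side, at 164 CPM against 93.2 CPM in WT and 226 CPM against 88.9 CPM in KO, with log2 ratios of 0.82 (0.28 to 1.35) and 1.35 (0.73 to 1.97). Gata6 did so by less, with log2 ratios of 0.40 (0.09 to 0.71) in WT and 0.90 (0.53 to 1.27) in KO. Isl1 stood highest in the few outflow cells, at 134 CPM on 7 UMIs in 5 cells in WT and 125 CPM on 5 UMIs in 2 cells in KO, against 17.8 and 8.67 CPM in ventricular cells. Most of its 28 WT and 20 KO UMIs in cardiac muscle lay in other cells, including 8 in undivided cells of KO. The log2 ratio of outflow over ventricular was 2.91 (1.35 to 4.34) in WT and 3.85 (1.63 to 6.18) in KO for Isl1, and 0.91 (0.36 to 1.41) and 0.85 (0.26 to 1.40) for Mef2c. Nkx2-5 did not differ beyond counting error, at 241 CPM in ventricular and 281 CPM in atrial and sinus cells in WT and 254 and 248 CPM in KO.

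**Figure D2:**
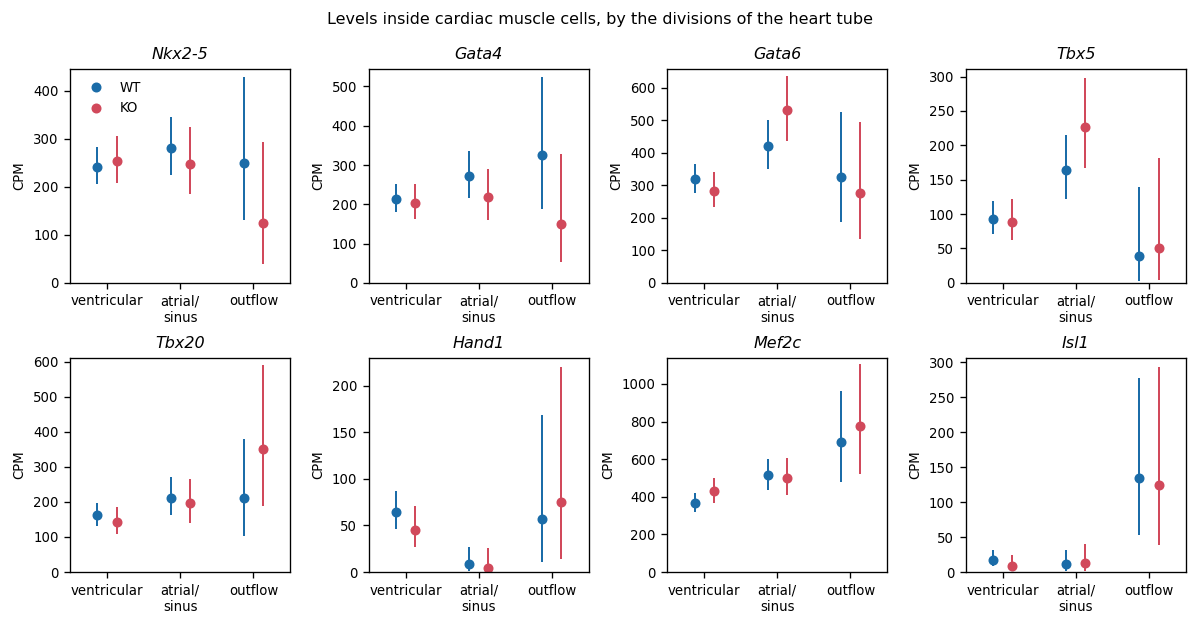
Level of 8 regulators (y axis, CPM) in ventricular, atrial and sinus, and outflow cells of the cardiac muscle class in WT (blue) and KO (red); lines are exact 95% Poisson intervals of 1 library. Hand1 is near 0 in atrial and sinus cells, Tbx5 is highest there, and Isl1 is highest in outflow cells, on 7 and 5 UMIs.

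The study asked how the region changes when Prdm6 is lost from the Wnt1 lineage. Over all cells Nkx2-5, Gata4, Gata6 and Hand1 were lower in KO and Mef2c was higher, beyond counting error. Nkx2-5 had 32.5 CPM in the WT library against 22.1 CPM in the KO library (log2 ratio −0.55, −0.73 to −0.38). Gata4 stood at 75.5 and 46.1 CPM (−0.71, −0.83 to −0.59), Gata6 at 160.5 and 124 CPM (−0.38, −0.45 to −0.30) and Hand1 at 19.0 and 10.0 CPM (−0.92, −1.18 to −0.67). Mef2c lay on the other side of 0, at 111 and 134 CPM (0.27, 0.19 to 0.35). Tbx5 (−0.23, −0.42 to −0.04) and Tbx20 (−0.16, −0.31 to −0.01) had upper limits just below 0, and the intervals of Isl1 (0.14, −0.02 to 0.29), Tbx1 (0.15, −0.02 to 0.31) and Tcf21 (−0.26, −0.52 to 0.00) held 0 or touched it. Of the 10, Gata4 and Hand1 were at least 1.5-fold lower in KO and 0 were at least 1.5-fold higher. Over the 12909 genes with at least 50 UMIs, 3.87% were at least 1.5-fold lower and 1.03% at least 1.5-fold higher. Under the other 2 scalings all genes shift by −0.06 and −0.07, and relative to that shift the intervals of Tbx5 and Tbx20 hold 0 while those of Isl1 and Tbx1 lie above it. The median log2 ratio was −0.25 for the 10 genes and −0.06 for all genes tested.

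Inside cardiac muscle all 10 intervals held 0, and those of Nkx2-5, Gata4 and Gata6 did not reach their ratios over all cells. Over all genes 12.1% of the 11776 intervals formed there were without 0. Nkx2-5 had a log2 ratio of −0.17 (−0.42 to 0.08), Gata4 −0.12 (−0.38 to 0.14), Gata6 −0.03 (−0.24 to 0.17), Tbx5 0.17 (−0.19 to 0.52), Tbx20 −0.06 (−0.35 to 0.22), Hand1 −0.41 (−1.06 to 0.22) and Mef2c 0.15 (−0.03 to 0.32). Of these 7 genes with at least 50 UMIs, 0 were past 1.5-fold, against 7.17% of 6557 genes lower and 2.85% higher. Hand1 passed it in 2 alternatives, with a ratio of −1.22 in cells thinned to 1000 UMIs and of −0.76 where a cardiac marker share of 3% was required. The interval of Hand1 holds its ratio over all cells, so a difference of that size in cardiac muscle lies within its counting error. Nkx2-5 was lower in the undivided cardiac cells of KO (−0.63, −1.21 to −0.07), while its ventricular ratio was 0.07 (−0.28 to 0.42). No other KO over WT ratio of a regulator in the divisions of cardiac muscle had an interval without 0. The share of all genes with such an interval in these divisions is not given here.

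**Figure D3:**
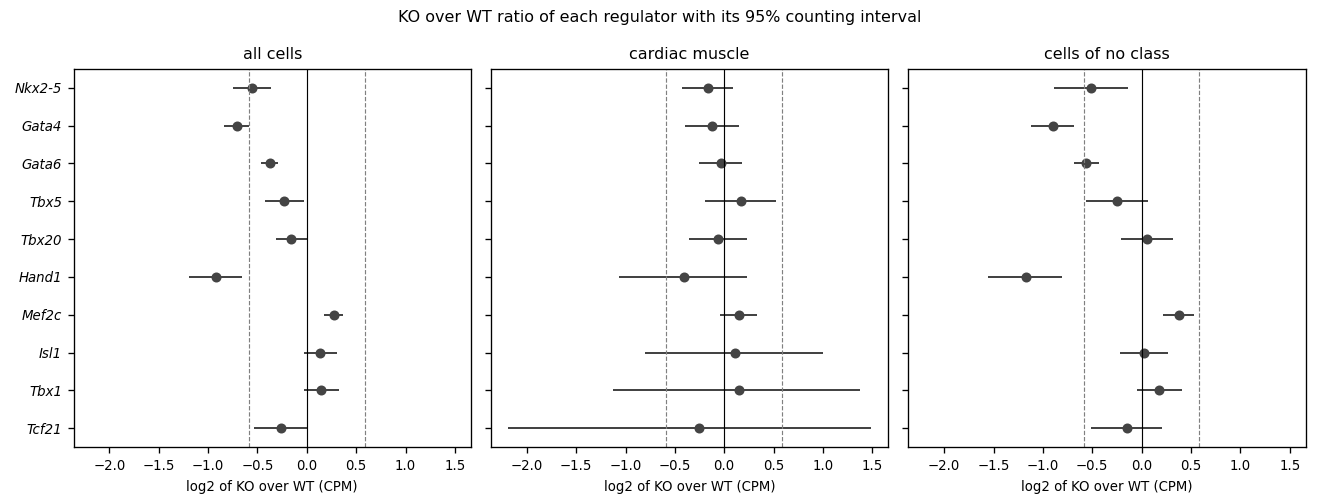
Log2 of KO CPM over WT CPM (x axis) for each regulator (y axis) over all cells, in cardiac muscle cells and in cells of no class; lines are exact conditional 95% intervals, the solid line marks no difference and dashed lines mark 1.5-fold. Gata4 and Hand1 lie left of the dashed line over all cells and in cells of no class, and all 10 intervals in cardiac muscle cross 0.

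The cells that carried each difference were traced by counting UMIs of a class per 1000000 UMIs of the whole library. For Nkx2-5, cardiac muscle went from 17.8 in WT to 11.5 in KO, and the cells of no class from 7.55 to 5.70. For Gata4, the cells of no class went from 26.9 to 15.5, cardiac muscle from 15.5 to 10.4, proepicardium from 5.29 to 1.58 and endothelial cells from 10.9 to 8.29. For Hand1, the cells of no class went from 10.2 to 4.86 and cardiac muscle from 3.18 to 1.74. For Gata6, the cells of no class went from 75.3 to 55.1 and cardiac muscle from 23.7 to 16.8. For Mef2c, cardiac muscle went down from 29.6 to 23.8, while the cells of no class went up from 32.0 to 44.7. When the classes of KO were weighted as in WT, the log2 ratio over all cells was −0.31 for Nkx2-5, −0.53 for Gata4, −0.27 for Gata6, −0.76 for Hand1, −0.06 for Tbx5, −0.05 for Tbx20 and 0.37 for Mef2c. At WT shares Gata4 was no longer past 1.5-fold, Hand1 still was, and Tbx5 and Tbx20 lay near 0.

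**Figure D4:**
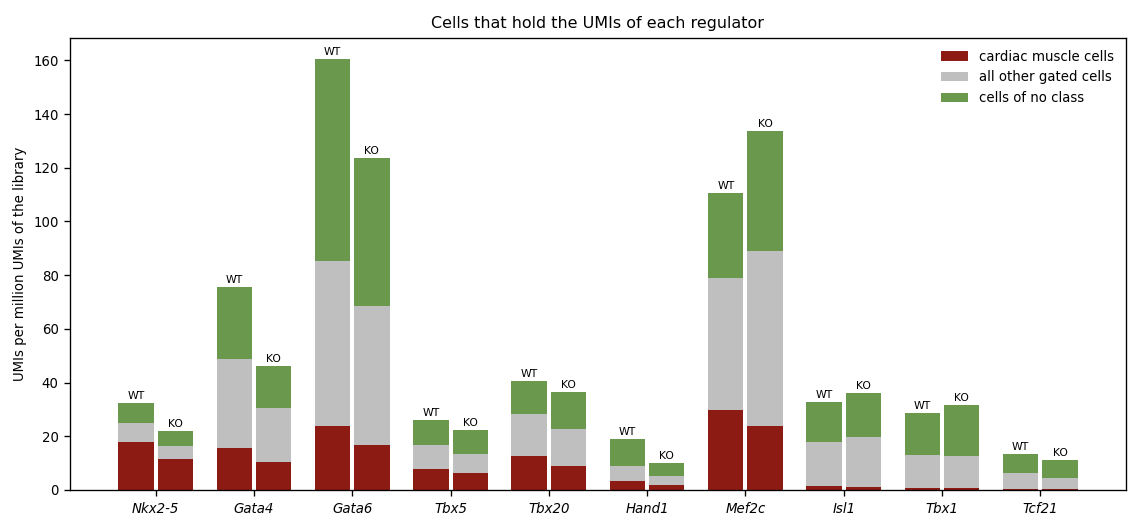
UMIs of each regulator per 1000000 UMIs of the library (y axis), stacked by the cells that held them: cardiac muscle, all other gated classes with the intermediate range, and cells of no class, in WT and KO (1 library each). The part held by cardiac muscle is smaller in KO for Nkx2-5 and Gata4, and the part held by cells of no class is smaller in KO for Gata4, Gata6 and Hand1.

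Among cells of no class, Gata4 had 559 UMIs in WT and 294 in KO (58.6 and 31.4 CPM, log2 ratio −0.90, −1.11 to −0.70), Hand1 had 211 and 92 (22.1 and 9.81 CPM, −1.17, −1.54 to −0.81) and Gata6 had 1564 and 1043 (164 and 111 CPM, −0.56, −0.67 to −0.45). Gata4 and Hand1 were past 1.5-fold, where 3.95% of 11531 genes were lower and 0.902% were higher. Relative to cells of no class without a Hand1 UMI, the 154 WT and 71 KO cells with one held 14.5 times as much Postn, 11.7 times as much Col1a1 and 6.56 times as much Ccdc80 (10 CPM added). Cells with a Gata4 UMI (404 in WT, 214 in KO) held 5.46 times as much Gata5, 5.31 times as much Gata6 and 4.72 times as much Plagl1. After the data were seen, the cells of no class were also divided by the genes that led them over all other cells. A first group had at least 2 of Postn, Dlk1, Col1a1 and Shisa3. Another had at least 2 of 6 epithelial and carrier genes (Rbp4, Ttr, Epcam, Krt18, Afp, Cldn6), and the rest had neither. The Postn group was 4.21% of the WT library (503 cells) and 2.32% of KO (227 cells). Within it Gata4 stood at 158 CPM in WT and 71.0 CPM in KO (−1.15, −1.71 to −0.62), Hand1 at 117 and 53.7 CPM (−1.13, −1.78 to −0.52) and Gata6 at 478 and 328 CPM (−0.54, −0.81 to −0.29). Nkx2-5 was lower on 21 and 2 UMIs (−2.53, −5.67 to −0.50), and Mef2c was higher (0.57, 0.08 to 1.05). The intervals of Isl1, Tbx1, Tbx5, Tbx20 and Tcf21 held 0. Postn itself, which helped to choose these cells, stood at 388 and 163 CPM there. In the rest, Gata4 had a ratio of −0.73 (−0.97 to −0.49) and Hand1 of −0.76 (−1.28 to −0.26). The rest still held Postn (130 and 46 UMIs, −1.57), Dlk1 (−0.76) and Col1a1 (−0.57), all lower in KO, and also Afp (84 and 19 UMIs, −2.22), Rbp4 (52 and 14, −1.97) and Ttr (61 and 18, −1.84). Krt18 was lower by less there (−0.31), and the intervals of Epcam (0.07) and Cldn6 (−0.17) held 0. In the epithelial and carrier group Gata4 had 34 and 18 UMIs (−0.64, −1.55 to 0.22), Hand1 13 and 10 (−0.10, with an interval that held 0) and Gata6 148 and 91 (−0.42, −0.82 to −0.04), beside 401 and 29 UMIs of Rbp4 (−3.51) and 384 and 142 of Ttr (−1.16). Of the other genes that chose this group, Afp was lower (−0.90) and Epcam higher (0.22, 0.02 to 0.43). The intervals of Krt18 (−0.23) and Cldn6 (−0.25) held 0. The part of these markers in the lower Gata4, Gata6 and Hand1 was not tested, and the division does not show whether the difference lay outside cells of the Postn kind.

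Gata4 and Gata6 were often found in the same cells. Of the cells of no class with a Gata4 UMI, 52.7% in WT (47.7% to 57.7%) and 55.1% in KO (48.2% to 61.9%) also had a Gata6 UMI, against 13.8% and 10.8% of those without. Median depths were 1704 and 1327 UMIs per cell in WT and 2013 and 1436 in KO, and 6.11% of WT and 3.76% of KO erythroid cells had a Gata6 UMI. With cells thinned to 1000 UMIs the shares were 36.1% (30.2% to 42.5%) against 11.8% in WT and 40.6% (32.2% to 49.5%) against 7.19% in KO. In cardiac muscle, where both genes are common, the thinned shares were 36.3% against 31.5% in WT and 30.8% against 29.6% in KO, with overlapping intervals. For Nkx2-5 and Isl1 the thinned counts were too few to tell. In cells of no class 12.5% of the 144 WT cells with Nkx2-5 and 11.9% of the 101 KO cells had an Isl1 UMI, against 4.04% and 4.86% of the others, and thinned shares were 4.88% (4 of 82 cells, 1.34% to 12.0%) against 2.78% in WT and 1.85% (1 of 54 cells, 0.0469% to 9.89%) against 2.86% in KO. In cardiac muscle, Isl1 was found in 4.21% of WT cells with Nkx2-5 and 3.81% of those without, unthinned.

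The regulators with at least 50 UMIs were then counted class by class, beside all genes of the class. In pharyngeal mesoderm 1 of 2 tested (Mef2c) was higher and 0 were lower, where 9.01% of genes were higher and 5.4% lower. In splanchnic mesoderm 0 of 5 were past 1.5-fold (7.64% of genes lower and 4.21% higher), and in proepicardium 0 of 3 (10.1% lower and 6.22% higher). In endothelial cells 1 of 6 (Isl1) was lower, where 4.39% of genes were lower and 2.39% higher, and in neural tube 1 of 8 (Gata4) was lower, where 4.81% were lower and 1.61% higher. In migrating neural crest the 1 tested (Mef2c) was higher, where 3.61% were higher and 4.85% lower. In the Foxd1 and Prrx mesenchyme 2 of 6 (Isl1 and Mef2c) were higher, where 2.97% were, and 1 (Tbx5) was lower, where 4.12% were. In erythroid cells 0 of 1 was past 1.5-fold (9.02% of genes lower and 3.13% higher), in neurons 0 of 1 (5.47% and 5.74%), in pharyngeal endoderm 0 of 1 (8.73% and 6.69%) and in somite and sclerotome 0 of 2 (6.15% and 4.53%), while surface ectoderm and arch neural crest mesenchyme had 0 tested. In the intermediate range 1 of 6 (Nkx2-5) was lower, with 39 and 17 UMIs (−0.84, −1.76 to 0.01), where 6.46% of genes were lower and 6.92% higher.

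Gata4 was lower in KO in several classes outside heart muscle. Its interval lay below 0 in 5 of the 12 classes with a ratio, erythroid cells among them. Over all genes 4.79% of the intervals in the 14 classes lay below 0. In these 5 the share ranged from 2.62% in pharyngeal mesoderm to 9.24% in neural tube. The difference between Gata4 and Gata6 was not tested, and their intervals overlapped in the classes given here. Pharyngeal mesoderm had 23 Gata4 UMIs in WT and 6 in KO (155 and 37.8 CPM, −2.03, −3.62 to −0.69), and 46 and 45 Gata6 UMIs (−0.12, −0.75 to 0.50). Endothelial cells gave −0.40 (−0.70 to −0.10) for Gata4 and 0.10 (−0.17 to 0.37) for Gata6. Neural tube cells, whose Gata4 level of 33.0 CPM in WT and 20.1 CPM in KO was low, gave −0.71 (−1.24 to −0.20) for Gata4 and −0.35 (−0.65 to −0.06) for Gata6. Where 3 distinct markers were required of a neural tube cell, the Gata4 ratio was −0.07. Somite cells had 11 Gata4 UMIs in WT and 0 in KO. Erythroid cells, the background, had 16 and 1 Gata4 UMIs (−2.85, −8.24 to −0.17), and the part of this lower background in the neural tube and somite values was not tested. In splanchnic mesoderm Gata4 gave −0.25 (−0.81 to 0.29).

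Mef2c had an interval above 0 in 5 of the 14 classes and below 0 in 1. Over all genes 4.09% of the intervals in these classes lay above 0 and 4.79% below, and in the 5 classes the share above ranged from 3.16% in pharyngeal mesoderm to 6.20% in neural tube. The interval of Mef2c lay above 0 in pharyngeal mesoderm, where 18 UMIs in WT and 41 in KO gave 121 and 259 CPM (1.10, 0.26 to 1.98), in migrating neural crest (61 and 93 UMIs, 0.74, 0.26 to 1.23), in Foxd1 and Prrx mesenchyme (82 and 131 UMIs, 0.69, 0.28 to 1.10), in neural tube (116 and 183 UMIs, 0.56, 0.22 to 0.91) and in endothelial cells (322 and 367 UMIs, 0.32, 0.10 to 0.54). The intermediate range (0.40, 0.10 to 0.70) and the cells of no class (0.38, 0.23 to 0.52) gave the same direction. With 3 distinct markers required, the ratio was 2.15 in pharyngeal mesoderm and 0.28 in the Foxd1 and Prrx mesenchyme. Erythroid cells had 32.9 and 33.6 CPM (0.03, −0.86 to 0.87), and proepicardium gave −0.11 (−1.10 to 0.79). The interval below 0 was that of surface ectoderm, on 8 UMIs in WT and 1 in KO (−3.30, −8.77 to −0.40).

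The Foxd1 and Prrx mesenchyme also had 25 Isl1 UMIs in WT and 52 in KO (20.4 and 42.7 CPM, 1.07, 0.35 to 1.82) and 37 and 20 Tbx5 UMIs (30.2 and 16.4 CPM, −0.88, −1.74 to −0.05). Isl1 lay on the other side in endothelial cells (51 and 28 UMIs, −0.73, −1.45 to −0.04). Tbx1 had 20 and 7 UMIs in migrating neural crest (−1.38, −2.87 to −0.08).

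In proepicardium the regulators split, on few cells. Gata6 had 147 and 62 UMIs (0.19, −0.26 to 0.63) and Gata4 110 and 30 (−0.44, −1.07 to 0.16). Tcf21 had 30 UMIs in WT and 1 in KO (119.8 and 10.8 CPM, −3.47, −8.82 to −0.88), although 108 WT and 35 KO cells met the gate. Hand1 had 7 and 12 UMIs (28.0 and 130.0 CPM, 2.22, 0.76 to 3.80), and 4 KO cells carried all 12. Hand1 was on the other side in splanchnic mesoderm (18 and 1 UMIs), endothelial cells (17 and 1) and neural tube (31 and 9). Over the 14 named classes, 21 of the 111 ratios that could be formed had an interval without 0, against 8.88% of the 135343 ratios formed by the same rule for all genes. Counts differ between genes, and a deeper gene has a narrower interval.

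Beyond the 10, a list of 34 genes of the same network (T-box, GATA and MEF2 relatives, cofactors and signals) was measured. Over all cells 33 had at least 50 UMIs, and 2 were at least 1.5-fold lower and 0 higher in KO, where 3.87% of all genes were lower and 1.03% higher. These were Zfpm1, a cofactor that binds GATA factors (98.7 and 54.8 CPM, −0.85, −0.96 to −0.74), and Fgf8, a growth factor of the pharynx and outflow tract (145 and 87 UMIs, 6.98 and 4.59 CPM, log2 ratio −0.60). Zfpm1 was also lower in endothelial cells (−0.82, −1.12 to −0.51), splanchnic mesoderm (−0.85, −1.77 to −0.01), pharyngeal mesoderm (−1.56, −2.85 to −0.42), cardiac muscle (−0.50, −1.02 to −0.01) and cells of no class (−0.78, −0.98 to −0.59). It acts in the erythroid lineage too, and erythroid cells held 670 of its 2051 UMIs in WT and 267 of 1038 in KO, at 565 and 499 CPM (−0.18, −0.39 to 0.03). Erythroid cells were 4.79% of the WT and 2.18% of the KO library, and the part of this in the lower Zfpm1 of other classes was not tested. The most abundant of the list, Irx3, Mef2a and Foxc1, had log2 ratios of 0.05, 0.30 and 0.14. In cardiac muscle 22 were tested, of which 2 were past 1.5-fold lower and 1 higher, near the shares of all genes there (7.17% and 2.85%). Mef2a, a relative of Mef2c, was higher (119 and 190.3 CPM, 0.68, 0.36 to 0.99), and Srf, the serum response factor of contractile genes (76.4 and 48.9 CPM, −0.64, −1.18 to −0.13), and Ldb1, which bridges LIM factors such as Isl1 (41.8 and 21.7 CPM, −0.94, −1.75 to −0.19), were lower. The most abundant there, Smyd1, Hopx and Bmp2, had log2 ratios of 0.06, 0.23 and 0.29. The median of the list was −0.05 in cardiac muscle, where that of all genes was −0.07.

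Genes whose levels over 17 classes in 2 libraries (34 values) were most like each regulator were listed by Pearson correlation, as a description over values that share libraries and classes. Nkx2-5 was followed by Thbs4 and Csrp3 (r = 0.88 for both), Tbx20 by Crip2 (0.93) and Cav1 (0.86), Mef2c by Des (0.83) and Fitm1 (0.80) and Tbx5 by Wnt2 (0.87), which is a marker of the splanchnic gate, and Rbpms2 (0.86). Gata4 was followed by Plagl1 (0.90) and Tmem108 (0.86), Gata6 by Tgfb2 (0.92) and Gata5 (0.87), and Hand1 by the ligands Bmp2 and Bmp4 (0.80 for both). Isl1 was followed by Sdk2 (0.81) and Fbxl16 (0.73), Tbx1 by Ttc13 (0.76) and Epb41l4b (0.69), and Tcf21 by Crb2 (0.77) and Myrf (0.72). Among the 10 themselves the closest pairs were Gata4 with Gata6 (0.89), Tbx5 with Gata4 (0.85) and Tbx5 with Gata6 (0.82), and the lowest was Tbx1 with Hand1 (−0.20).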

How the data were processed

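The deposited signal values are, per the methods of the authors, square roots of UMI counts scaled to library size, and their squares summed to 1641 in every cell. The submitters' processing notes name Cell Ranger 1.3.1, Scanpy and mm10, while the methods name a human reference, and the symbols are those of mouse. UMIs were recovered by squaring and dividing by the smallest nonzero square of the cell, and 100% of nonzero values came out whole within 0.01. Doublets were not called again here.

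Levels are pooled CPM with exact Poisson intervals, ratios have exact conditional intervals and shares have Clopper-Pearson intervals, all at 95% and for counting error only. With 1 library per genotype no test was made. Genes needed 50 UMIs over both libraries for the 1.5-fold rule of size, and ratios with 3 UMIs or fewer in both libraries are not given. All 10 regulators are named. Of the network list, those past 1.5-fold and the 3 with most UMIs are named over all cells and in cardiac muscle. Network genes past 1.5-fold in other classes, such as Hand2 in proepicardium, are not all named. For genes alike in pattern, the 2 with the highest r and at least 200 UMIs are named (10 CPM added).

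The regulators, markers and lists were chosen with earlier results of these data known. The planned gate by distinct markers was replaced for cardiac muscle by a 2% share of marker UMIs after free cardiac RNA was seen. The otic, myogenic, and macrophage and megakaryocyte gates had under 3 raised markers and are not described. Coordinates are from GENCODE vM21 (GRCm38), in which 17917 of 18131 symbols were found. Ratios were tested on simulated data. Python 3.11.15, NumPy 2.4.6, SciPy 1.17.1 and Matplotlib 3.10.9 were used. Alternatives were other scalings, 20 UMIs, 2-fold, 3 distinct markers, thinning to 1000 UMIs, and cells of more than 1 class or the deepest 5% left out.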

Additional observations from a re-analysis of the deposited data

Results flagged for a closer look

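With 1 library per genotype there was no group in which a single sample could stand apart. In 3 regulators the KO over WT ratio had an interval above 0 in a named class and below 0 in another. Of the 9031 genes with ratios in at least 9 of the 14 classes, as these 3 have, 5.89% had intervals on both sides. The difference between classes was not tested, and 111 ratios were formed for the 10 regulators.

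Isl1 had a log2 ratio of 1.07 in Foxd1 and Prrx mesenchyme (25 UMIs in WT, 52 in KO) and −0.73 in endothelial cells (51 and 28).

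Hand1 had a ratio of 2.22 in proepicardium (7 and 12 UMIs), against −3.43 in splanchnic mesoderm (18 and 1), −3.96 in endothelial cells (17 and 1) and −1.88 in neural tube (31 and 9). The proepicardial UMIs of KO lay in 4 cells.

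Mef2c had ratios of 1.10 in pharyngeal mesoderm (18 and 41 UMIs), 0.32 in endothelial cells (322 and 367), 0.74 in migrating neural crest (61 and 93), 0.56 in neural tube (116 and 183) and 0.69 in Foxd1 and Prrx mesenchyme (82 and 131), against −3.30 in surface ectoderm, which rests on 8 and 1 UMIs.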

How the results depend on the processing

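No paired analysis was possible because each genotype had 1 library. Over 473 recomputed ratios of regulators with at least 50 UMIs, 452 stayed within the interval of the value reported, 21 moved outside it and 0 changed direction where the interval lay on a single side of 0. Leaving out cells of more than 1 class, the deepest 5% of cells, a mean over cells and both other scalings moved none outside. Requiring 3 distinct markers moved 7 of 46, thinning 10 of 69 and held class shares 4 of 10. Cells thinned to 1000 UMIs, which drops shallower cells, gave log2 ratios over all cells of −0.79 for Nkx2-5, −0.96 for Gata4, −0.57 for Gata6 and −0.53 for Tcf21, and −1.22 for Hand1 in cardiac muscle. Class shares held at those of WT, an alternative added after the data were seen, gave −0.31 for Nkx2-5, −0.53 for Gata4, −0.27 for Gata6 and 0.37 for Mef2c, since it weights the classes of KO by their WT shares.

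The numbers of regulators past 1.5-fold moved with the rule. A minimum of 20 UMIs gave 2 in pharyngeal mesoderm, 1 in splanchnic mesoderm, 1 in proepicardium, 3 in endothelial cells, 1 in erythroid cells, 4 in migrating neural crest, 1 in arch neural crest mesenchyme, 2 in neural tube, 2 in neurons, 1 in somite and 4 in Foxd1 and Prrx mesenchyme, while 7.43% to 17.05% of all genes in these classes were lower and 3.12% to 12.9% higher. A 2-fold rule gave 0 over all cells, 0 in endothelial cells, migrating neural crest, neural tube and the intermediate range, and 1 in Foxd1 and Prrx mesenchyme and in cells of no class. Pharyngeal mesoderm kept 1 (Mef2c). Of all genes, 104 of 12909 were at least 2-fold lower and 21 higher over all cells, and 36 and 24 of 6967 in Foxd1 and Prrx mesenchyme. The counts were 79 and 18 of 11531 in cells of no class and 11 and 18 of 1277 in pharyngeal mesoderm. A cardiac marker share of 3%, also added later, gave 1 in cardiac muscle (Hand1, −0.76) and 0 in the intermediate range. The share of all genes past 1.5-fold at that setting is not given here. Counting error of 1 library per genotype, free RNA and few cells in proepicardium and pharyngeal mesoderm limit what these values show.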

Other observations

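Among cells of no class, genes were listed by their level in cells with a UMI of a regulator over cells without (10 CPM added, both libraries pooled), as a description of cells chosen by that UMI, and the 3 highest are given. Cells with Tbx1 (298 in WT, 312 in KO) held 2.75 times as much Edn1, an endothelin ligand of the pharyngeal arches, 2.42 times as much Nrg1 and 2.25 times as much Pax9, a factor of the pharyngeal pouches. Cells with Isl1 (267 and 276) held 3.74 times as much Rgs5, 3.19 times as much 3632451O06Rik and 3.02 times as much Apela. Cells with Tbx5 (179 and 144) held 6.11 times as much Prl8a2, 4.26 times as much Cacna2d2 and 4.06 times as much Bhlhe41. Cells with Tcf21 (136 and 126) held 2.94 times as much Hand2, 2.82 times as much Nfia and 2.63 times as much Gata4. Cells with Nkx2-5 (144 and 101) held 3.47 times as much Ankrd1, a heart muscle gene, 3.40 times as much Postn and 2.88 times as much Pmp22.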
